A study of Mus musculus with 18 samples.

Results

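A group of 6 genes known from nervous and endocrine tissue was followed in the hearts of growing rats with a defect in titin splicing: Penk, Sctr, Gabrb2, Gnao1, Bex1 and Hs3st5. They were selected on the size of their measured difference between mutant and wild-type hearts at day 49, so that difference is described here and not tested. Every probe set that the platform annotation gives to one of these symbols alone was taken, which made 8 probe sets for the 6 genes, out of 31042 probe sets and 14217 genes measured. Gabrb2 and Hs3st5 have 2 probe sets each, and the brighter one stands for the gene unless stated.

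The data were Affymetrix Rat 230 2.0 arrays of heart RNA from 18 animals, 1 animal per array. Wild-type rats and rats homozygous for the mutation were taken at 1, 20 and 49 days after birth, with 3 animals in each of the 6 groups. The mutation was first seen in Sprague-Dawley rats, which were crossed with Fisher 344 inbreds, so both genotypes come from a mixed stock. The sample titles speak of whole heart and the series text of ventricular extracts, and the organism field names mouse although the animals and the array are rat. The genotype field holds the same titin isoform entry for all samples, and the genotype was taken from the source field. No treatment was given, and the sex of the animals is not stated.

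Titin is a very large elastic protein of the muscle sarcomere. Its splicing in this rat line is known to fail through loss of Rbm20, a splicing factor of striated muscle. Neuroendocrine genes are at home in neurons and gland cells, but heart muscle also makes peptides, receptors and G proteins of this kind. Penk encodes proenkephalin, the precursor of the enkephalin opioid peptides, which the ventricle is known to transcribe. Sctr encodes the secretin receptor, a receptor coupled to the stimulatory G protein. Gabrb2 encodes the β2 subunit of the GABA-A receptor, a ligand-gated chloride channel. Gnao1 encodes the α subunit of the G protein Go, which carries signals from inhibitory receptors. Bex1 encodes a small brain-expressed X-linked protein known as an adaptor of neurotrophin receptor signalling. Hs3st5 encodes a 3-O-sulfotransferase that finishes heparan sulfate chains.

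The values are log2 expression levels, so a difference of 1 is a doubling. Rbm20 lay between 5.35 and 6.12 on the mutant arrays and between 9.74 and 10.90 on the wild-type arrays, so no array went against its label. The 4 measured defining markers of ventricular muscle lay between 13.11 and 14.26 on all arrays. Array medians lay between 5.42 and 5.50. Hybridization controls, RNAs added to every sample at the bench, were lower on 2 of the 3 mutant arrays at day 49 (8.42 and 9.01) than on the remaining one (9.90) and on the wild-type arrays of that age (9.84 to 10.16). Xist, which marks female animals, was high in 1 of 3 animals of each group at days 1 and 20 and in 2 of 3 of each group at day 49. In RNA from a whole piece of tissue, fewer cells of a type and less RNA per cell cannot be told apart.

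At day 49 the 3 mutant arrays lay wholly above the 3 wild-type arrays for Bex1, Penk and Gnao1 and wholly below them for Sctr, Gabrb2 and Hs3st5. That was 6 of the 8 probe sets, 3 higher and 3 lower, and the choice of genes fixes this count. Of all probe sets, 13.7% did not overlap at day 49, 6.70% higher and 6.96% lower in the mutant. Ranked among genes by the size of the day 49 difference in its own direction, Bex1 stood in place 4, Penk in place 5 and Gnao1 in place 14 of the genes higher in the mutant. Sctr stood in place 5, Gabrb2 in place 6 and Hs3st5 in place 9 of the genes lower in the mutant. At day 1, 1 of the 8 probe sets separated the genotypes, the dimmer one of Gabrb2, beside 9.07% of all probe sets. At day 20, 3 of 8 did: Bex1 and Gnao1 higher and Gabrb2 lower in the mutant, beside 10.4% of all probe sets (4.67% higher and 5.76% lower).

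**Figure D1:**
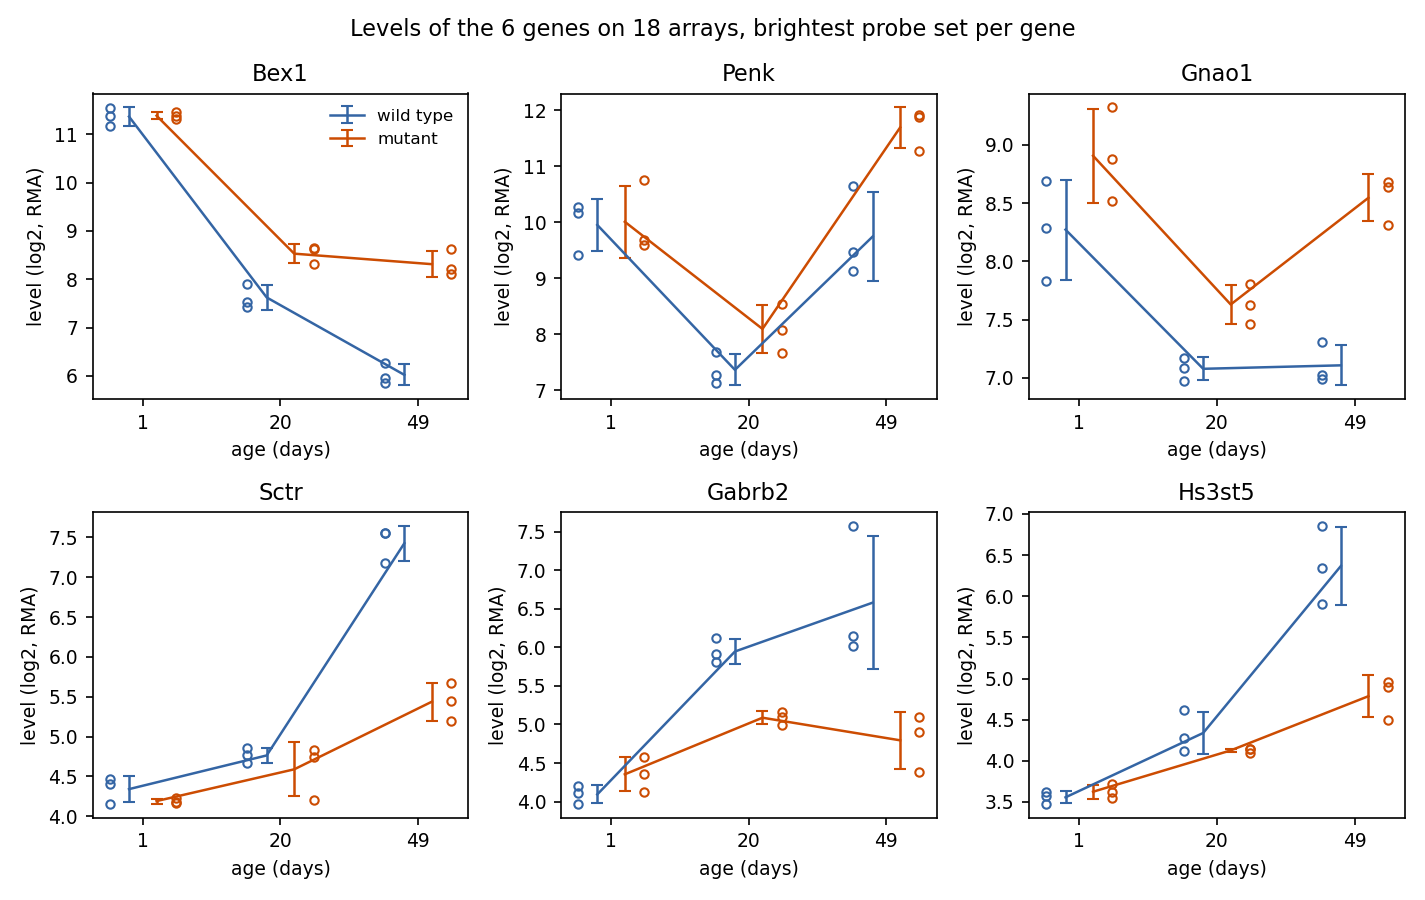
Expression level (log2) of the 6 genes against age in days, with a circle for each animal, the group mean joined by lines and bars of 1 SD (n = 3). By day 49 the mutant circles lie above the wild-type circles for Bex1, Penk and Gnao1 and below them for Sctr, Gabrb2 and Hs3st5, while at day 1 the genotypes overlap in all 6 panels; each panel has its own scale, which does not start at 0.

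Penk, the opioid precursor, followed a course with a low point at day 20 in both genotypes and its highest level in the day 49 mutant. At day 1 the wild-type animals stood at 10.26, 9.42 and 10.17 and the mutants at 9.60, 9.68 and 10.75. At day 20 the wild types stood at 7.13, 7.28 and 7.67 and the mutants at 8.07, 7.67 and 8.54. At day 49 the wild types stood at 9.13, 10.64 and 9.46 and the mutants at 11.92, 11.88 and 11.28. The genotypes therefore overlapped at day 1, overlapped narrowly at day 20 and were apart at day 49, when the lowest mutant stood above the highest wild type. The day 49 mutants (11.69 ± 0.36, SD, n = 3) were the highest of the 6 groups, the day 49 wild types (9.74 ± 0.79) overlapped both day 1 groups, and the day 20 groups were the lowest.

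Averaged over both genotypes, Penk fell by 2.25 (log2, SE 0.25) from day 1 to day 20 and rose by 2.99 (SE 0.25) from day 20 to day 49. Both changes passed limma's moderated test over all probe sets, with adjusted p of 8.83e-07 and 3.48e-07. For each of the 6 genes the later change includes the day 49 arrays on which the genes were selected. It is the mean of both genotypes and not their difference, but a gene that moved late in 1 genotype alone enters both. The genotype difference, mutant minus wild type, was 0.06 at day 1 (95% interval -0.70 to 0.81) and 0.73 at day 20 (-0.02 to 1.48), and neither passed the test (limma adjusted p = 1.00 for both). On day 49 it was 1.95 (SE 0.36), 3.87-fold. From day 20 to day 49 the wild-type mean moved by 2.38 and the mutant mean by 3.60, a difference of 1.22 between the genotypes' steps (SE 0.51, not tested).

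Other genes of opioid signalling and peptide processing gave no genotype call. Of the 17 measured genes on a list of opioid precursors, opioid receptors and the enzymes that cut and trim prohormones, 0 were called by limma at day 1, day 20 or day 49. The shares of all probe sets called at those ages were 0.110%, 0.139% and 0.606%, so 0 of 17 is near them. Unadjusted p was below 0.05 for 0, 2 and 1 of the 17, beside 2080, 1326 and 2534 of all 31042 probe sets. These figures for all probe sets also apply to the lists below. The list's median difference at day 49 was 0.05 against 0.01 for all probe sets. Carboxypeptidase E, encoded by Cpe, which trims enkephalin from its precursor, had a difference of 0.18 at day 49 (limma adjusted p = 0.525). With age, 4 of the 17 rose and 3 fell from day 1 to day 20, and 1 rose and 1 fell from day 20 to day 49. Of all probe sets, 19.5% rose and 21.5% fell over the first interval and 10.1% rose and 13.4% fell over the second.

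Sctr, the secretin receptor, was low in all young hearts and came up late, mainly in the wild type. On day 1 wild types stood at 4.40, 4.16 and 4.46 and the mutants at 4.18, 4.17 and 4.23. On day 20 wild types stood at 4.85, 4.67 and 4.77 and the mutants at 4.20, 4.74 and 4.83. On day 49 wild types stood at 7.55, 7.55 and 7.17 and the mutants at 5.19, 5.67 and 5.45. The genotypes overlapped at both younger ages, and at day 49 every wild type lay more than a log2 unit above every mutant. The day 49 wild types (7.43 ± 0.22, SD, n = 3) and then the day 49 mutants (5.44 ± 0.24) stood above all other groups, whose neighbours in order overlapped.

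In all, 14 of the 18 Sctr values lay at or below the median of their array, so the younger levels are near the dim end of the scale. The mean of both genotypes rose by 0.41 (SE 0.11) from day 1 to day 20 and by 1.76 (SE 0.11) from day 20 to day 49, with limma adjusted p of 0.00509 and 7.72e-09. The genotype difference was -0.15 at day 1 (95% interval -0.47 to 0.17) and -0.17 at day 20 (-0.50 to 0.15), with limma adjusted p of 0.975 and 1.00. On day 49 it was -1.99 (SE 0.15), 3.97-fold lower in the mutant. Between days 20 and 49 the wild-type mean of Sctr moved by 2.66 and the mutant mean by 0.85, so the later change in the mean of both genotypes is mostly the wild-type step. That step also enters the day 49 difference on which Sctr was chosen, so the later age call adds no support beyond the choice.

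In the family of secretin-type receptors and their ligands, 0 of 20 measured genes passed limma for genotype at any age. All probe sets gave 0.110%, 0.139% and 0.606% at days 1, 20 and 49, so 0 is near that share. Unadjusted p was below 0.05 for 2, 1 and 1 of the 20 at those ages. The list's median difference at day 49 was 0.07. Ramp1, a partner protein that sets the ligand choice of calcitonin-type receptors, had a difference of 0.34 (limma adjusted p = 0.571). From day 20 to day 49, when Sctr rose, 1 of the 20 rose and 2 fell, beside 10.1% and 13.4% of all probe sets.

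Gabrb2, the GABA-A receptor subunit, was already apart between the genotypes at day 20. The day 1 wild types stood at 4.11, 3.97 and 4.20 and the mutants at 4.57, 4.36 and 4.13. The day 20 wild types stood at 6.12, 5.91 and 5.81 and the mutants at 5.10, 5.0 and 5.16. The day 49 wild types stood at 6.02, 6.15 and 7.57 and the mutants at 4.91, 4.38 and 5.10. The genotypes overlapped at day 1, and every wild type lay above every mutant at days 20 and 49. The older wild types (6.58 ± 0.86 at day 49 and 5.95 ± 0.16 at day 20, SD, n = 3) overlapped each other, as did the older mutants (4.79 ± 0.37 and 5.09 ± 0.08). The day 1 groups had the lowest means, the day 1 mutants (4.13 to 4.57) overlapping both the day 49 mutants and the day 1 wild types.

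The mean of both genotypes of Gabrb2 rose by 1.29 (SE 0.20) from day 1 to day 20 with limma adjusted p = 3.14e-05, and its change of 0.17 from day 20 to day 49 did not pass (limma adjusted p = 0.565). The day 20 genotype difference was -0.86 (95% interval -1.44 to -0.27), with an unadjusted p of 0.00656 and a limma adjusted p of 0.676. It passed when the model held the day 20 arrays alone (limma adjusted p = 0.0165) or left out wild-type animal 3 of day 49 (0.0314), and over all 28 alternative settings it ranged from -0.93 to -0.77. By day 49 the difference was -1.78 (SE 0.28), 3.45-fold lower in the mutant. That same wild-type animal 3 held the highest Gabrb2 value, 7.57, and without it the day 49 difference was -1.29.

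The dimmer Gabrb2 probe set did not show this pattern. It lay between 3.44 and 4.27, below the array median on all 18 arrays, with genotype differences of 0.26, -0.08 and -0.09 at days 1, 20 and 49. It did not pass with age either (limma adjusted p = 0.0900 and 0.365). The 2 probe sets of Gabrb2 therefore disagree, and the account of this gene rests on the brighter one.

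Among 25 measured genes for GABA receptors and GABA metabolism, 0 were called at day 1 or day 20. All probe sets gave 0.110%, 0.139% and 0.606% at days 1, 20 and 49. Unadjusted p was below 0.05 for 3 and 0 of the 25 at days 1 and 20. At day 49 the one called gene was Gabbr1, a subunit of the G-protein-coupled GABA-B receptor, higher in the mutant by 0.62 (SE 0.13, limma adjusted p = 0.0373). Its other 4 probe sets had differences from -0.02 to 0.05, and the call was lost in 11 of 28 alternative settings. The list's median difference at day 49 was -0.01.

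Gnao1, the Go α subunit, was the only one of the 6 genes to stand higher in the mutant mean by more than 0.5 at all 3 ages. On day 1 wild types stood at 7.83, 8.69 and 8.29 and the mutants at 8.88, 9.32 and 8.51. On day 20 wild types stood at 7.17, 6.98 and 7.08 and the mutants at 7.80, 7.46 and 7.63. On day 49 wild types stood at 7.31, 6.99 and 7.03 and the mutants at 8.64, 8.31 and 8.68. The genotypes overlapped at day 1 and were apart at days 20 and 49. In order of level, the day 1 mutants (8.91 ± 0.40, SD, n = 3), day 49 mutants (8.54 ± 0.20) and day 1 wild types (8.27 ± 0.43) overlapped as neighbours, the day 20 mutants came next, and the wild types of days 49 and 20 (7.11 ± 0.17 and 7.08 ± 0.10) were lowest and overlapped.

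The mean of both genotypes of Gnao1 fell by 1.24 (SE 0.14) from day 1 to day 20 and rose by 0.47 (SE 0.14) from day 20 to day 49, with limma adjusted p of 8.93e-07 and 0.0196. The later call was lost without wild-type animal 1 of day 49 (limma adjusted p = 0.0570). The genotype difference was 0.63 at day 1 (95% interval 0.22 to 1.05) and 0.55 at day 20 (0.14 to 0.97). Its unadjusted p was 0.00478 and 0.0118, and neither passed limma over all probe sets (adjusted p = 0.382 and 0.812). On day 49 it was 1.44 (SE 0.20), 2.71-fold. Between days 20 and 49 the wild-type mean moved by 0.03 and the mutant mean by 0.92, steps that were not tested. The later change in the mean of both genotypes is thus almost all the mutant step. That step also enters the day 49 difference on which Gnao1 was chosen, so the later age call adds no support beyond the choice.

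Of the other heterotrimeric G-protein subunits and the RGS proteins that switch them off, 0 of 35 were called by limma at any age. All probe sets gave 0.110%, 0.139% and 0.606% at days 1, 20 and 49, so 0 is near that share. Unadjusted p was below 0.05 for 0, 3 and 1 of the 35 measured genes at those ages. The median difference of this list at day 49 was 0.00. Gna12, the α subunit of G12, had the smallest p at day 49, with a difference of -0.19 (limma adjusted p = 0.512). In adrenergic and muscarinic signalling, 1 of 25 genes was called at day 49, Prkaca, a catalytic subunit of protein kinase A, with a difference of 1.16 (SE 0.21, limma adjusted p = 0.0103). At day 20 the difference of Prkaca was -0.68, and its day 49 call was lost in 5 of 28 alternative settings.

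Bex1, the adaptor, was high in every newborn heart and far lower later, and by day 49 the wild types stood at a level no mutant had reached. At day 1 the wild types stood at 11.39, 11.17 and 11.55 and the mutants at 11.37, 11.33 and 11.46. At day 20 the wild types stood at 7.91, 7.43 and 7.53 and the mutants at 8.31, 8.63 and 8.65. At day 49 the wild types stood at 5.85, 6.27 and 5.95 and the mutants at 8.10, 8.22 and 8.62. The genotypes overlapped at day 1 and were apart at both later ages. In order, the day 1 groups overlapped at the top, the mutants of day 20 (8.53 ± 0.19, SD, n = 3) and day 49 (8.31 ± 0.27) overlapped each other, and the wild types of day 20 (7.62 ± 0.25) and day 49 (6.02 ± 0.22) followed without overlap.

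The mean of both genotypes of Bex1 fell by 3.30 (SE 0.11) from day 1 to day 20 and by 0.91 (SE 0.11) from day 20 to day 49, with limma adjusted p of 7.42e-14 and 1.39e-05. At day 1 the genotype difference was 0.02 (95% interval -0.31 to 0.35, limma adjusted p = 1.00). At day 20 Bex1 was 0.91 higher in the mutant (95% interval 0.58 to 1.23), 1.87-fold, with limma adjusted p = 0.0178. It was the only call among the 8 probe sets at that age, beside 0.139% of all probe sets called in either direction and 0.0773% higher in the mutant. The call was lost with the day 20 arrays alone (adjusted p = 0.0614) and without mutant animal 2 or 3 or wild-type animal 2 or 3 of day 20 (limma adjusted p 0.103 to 0.161), while the difference stayed between 0.81 and 1.05. By day 49 the difference was 2.29 (SE 0.16), 4.90-fold. Between days 20 and 49 the wild-type mean of Bex1 moved by -1.60 and the mutant mean by -0.22. The later change in the mean of both genotypes is thus mostly the wild-type step. That step also enters the day 49 difference on which Bex1 was chosen, so the later age call adds no support beyond the choice.

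A further probe set, annotated to Bex1 and Bex2 together and so outside the selection, lay between 3.46 and 4.86. It was higher in all 3 mutants than in all 3 wild types at day 1 (difference 0.49), with differences of -0.01 and 0.03 at days 20 and 49. It lay at the dim end of the scale from day 20 on.

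Relatives of Bex1 moved the same way in part. On a list of the Bex and Tceal families, small X-linked proteins of one gene cluster, with the neurotrophins and their receptors, 3 of 12 measured genes were higher in the mutant at day 49 and 0 were lower, beside 0.606% of all probe sets called, 0.235% higher and 0.370% lower. The list's median difference was 0.17, 10 of the 12 were positive, and this list was drawn up with results of these data known. Tceal9 stood at 9.30, 9.41 and 9.37 in the day 49 wild types and at 10.17, 10.13 and 10.21 in the mutants, a difference of 0.81 (SE 0.10, limma adjusted p = 0.000165). Tceal5 stood at 4.63, 4.59 and 4.52 in the wild types and at 5.41, 5.39 and 5.79 in the mutants, a difference of 0.95 (SE 0.13, limma adjusted p = 0.000640). The genotypes did not overlap for either gene, and both calls were kept in all 28 alternative settings.

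Bex3, a neurotrophin receptor partner, was higher in the mutant by 0.52 at day 49 (SE 0.10, limma adjusted p = 0.0240). The call was lost in 7 of 28 settings, and the second Bex3 probe set had a difference of 0.28 (limma adjusted p = 0.764). Bex2 and Bex4 had day 49 differences of 0.05 and 0.15, Tceal8 of 0.29 and Tceal1 of -0.17, none of which passed. No gene of the list was called at day 1 or day 20, where unadjusted p was below 0.05 for 0 and 2 of the 12. At day 20 Tceal5 stood 0.41 higher and Tceal9 0.33 higher in the mutant (limma adjusted p = 0.636 and 0.500).

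From day 1 to day 20, when Bex1 fell, 7 of the 12 genes of this list fell and 2 rose, beside 21.5% and 19.5% of all probe sets, with changes of -3.86 for Bex4, -3.02 for Tceal5, -1.54 for Bex3 and -1.07 for Tceal9. The pair that rose was Ntrk2 (0.64), the receptor of brain-derived neurotrophic factor, and Bdnf (0.52), which encodes that factor. With 1 probe set per gene, as the list is counted, 4216 of 14217 genes fell and 3076 rose over this interval. From day 20 to day 49, 3 of the 12 fell in the mean of both genotypes and 1 rose, beside 13.4% and 10.1% of all probe sets. The 3 were Bex3, Tceal5 and Tceal9, which were also higher in the day 49 mutants. Both comparisons use the day 49 arrays, so the match is not a separate result. For each of these genes the day 49 wild types lay wholly below those of day 20, while the mutants overlapped. Tceal9 mutants stood at 10.09, 9.96 and 10.34 on day 20 and at 10.17, 10.13 and 10.21 on day 49.

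**Figure D2:**
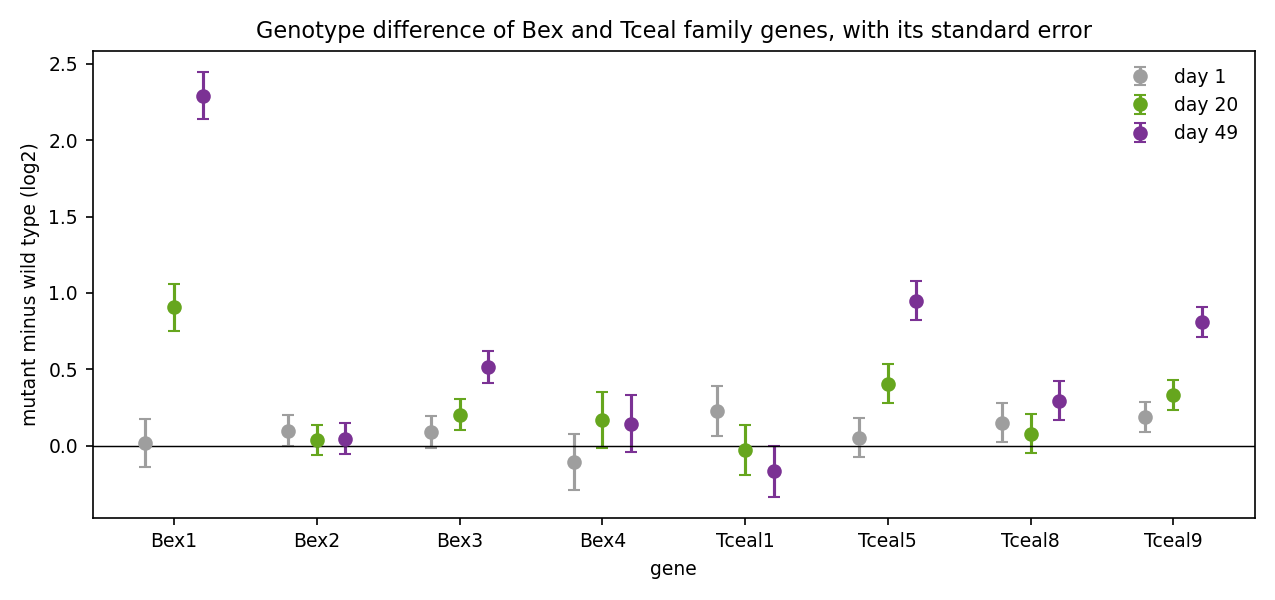
Mutant minus wild-type difference (log2) of Bex1 and 7 measured Bex and Tceal genes at days 1, 20 and 49, with bars of 1 SE from the model of 18 arrays. Bex1 reaches 2.29 at day 49, Tceal5 0.95, Tceal9 0.81 and Bex3 0.52, while Bex2, Bex4 and Tceal1 lie nearer to 0 than that at all 3 ages.

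Hs3st5, the heparan sulfate sulfotransferase, came up with age in both genotypes and further in the wild type. On day 1 wild types stood at 3.58, 3.48 and 3.62 and the mutants at 3.54, 3.71 and 3.62. On day 20 wild types stood at 4.12, 4.28 and 4.62 and the mutants at 4.14, 4.10 and 4.14. On day 49 wild types stood at 5.90, 6.34 and 6.85 and the mutants at 4.90, 4.49 and 4.96. The genotypes overlapped at days 1 and 20, and at day 49 the lowest wild type stood nearly a log2 unit above the highest mutant. The day 49 wild types (6.37 ± 0.48, SD, n = 3) stood alone at the top, the day 49 mutants (4.79 ± 0.25) overlapped the day 20 wild types (4.34 ± 0.26), and the day 1 groups were lowest and overlapped.

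In all, 15 of the 18 Hs3st5 values lay at or below the median of their array. The mean of both genotypes rose by 0.64 (SE 0.13) from day 1 to day 20 and by 1.34 (SE 0.13) from day 20 to day 49, with limma adjusted p of 0.000443 and 1.08e-06. The genotype difference was 0.07 at day 1 (95% interval -0.31 to 0.44) and -0.21 at day 20 (-0.59 to 0.16), both with limma adjusted p = 1.00. On day 49 it was -1.58 (SE 0.18), 2.99-fold lower in the mutant. Between days 20 and 49 the wild-type mean of Hs3st5 moved by 2.03 and the mutant mean by 0.66, so here too the wild-type step makes up most of the later change. As that step also enters the day 49 difference on which Hs3st5 was chosen, the later age call adds no support beyond the choice.

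The dimmer Hs3st5 probe set, between 3.24 and 4.52 and below the array median throughout, had day 49 arrays that overlapped, with a difference of -0.32 (SE 0.12). It rose with age as the brighter one did, by 0.36 and then by 0.46 (limma adjusted p = 0.00185 and 0.000703). Of 19 measured genes that build or modify heparan sulfate, 0 were called by limma for genotype at day 1, 20 or 49. All probe sets gave 0.110%, 0.139% and 0.606%, so 0 is near that share. Unadjusted p was below 0.05 for 2, 0 and 0 of the 19. From day 20 to day 49, when Hs3st5 rose, 0 of these 19 rose and 6 fell, beside 10.1% and 13.4% of all probe sets. With 1 probe set per gene, as the list is counted, 1797 of 14217 genes rose and 2527 fell over this interval.

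Over all 8 probe sets, counts of genotype calls at day 1 and of age calls are set beside the shares of all probe sets. At day 1, 0 of 8 were called by limma, beside 0.110% of all probe sets. An unadjusted p below 0.05 was held by 1 of 8 (Gnao1), beside 2080 of all 31042 probe sets. From day 1 to day 20, 7 of 8 passed the age test, 4 up and 3 down, beside 41.0% of all probe sets (19.5% up and 21.5% down). From day 20 to day 49, 6 of 8 passed, 5 up and 1 down, beside 23.5% (10.1% up and 13.4% down). Nothing is read from that later count, because the day 49 arrays also chose the genes. Other measures also moved with age: the gap between the 3′ and 5′ probe sets of Gapdh, a sign of RNA integrity, had means of 0.94 in wild types and 1.03 in mutants at day 1, 0.58 and 0.49 at day 20, and 0.35 and 0.43 at day 49. Of 13 leukocyte markers, 8 rose and 0 fell from day 1 to day 20, and 10 rose and 0 fell from day 20 to day 49. Of 9 smooth muscle markers, 3 rose and 5 fell in the first interval. Their part in the age changes was not tested. The 6 genes were picked for being most different at day 49, so a miss at the younger ages is partly set by that choice.

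**Figure D3:**
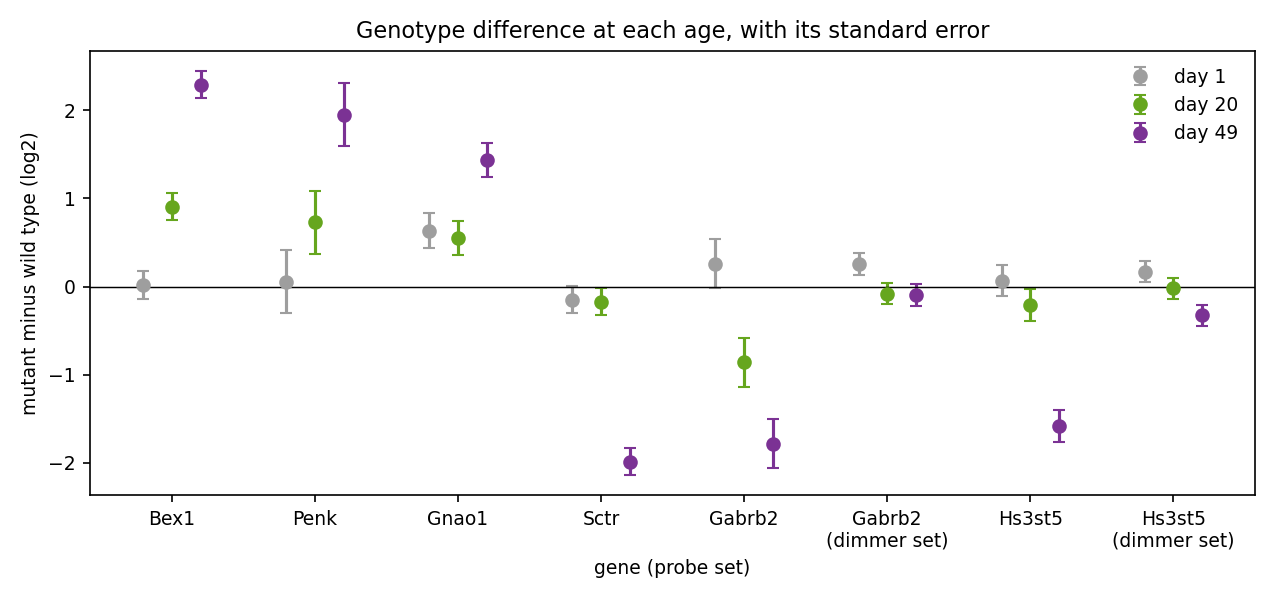
Mutant minus wild-type difference (log2) for each of the 8 probe sets at days 1, 20 and 49, with bars of 1 SE from the model of 18 arrays. The brighter probe set of each gene lies farthest from 0 at day 49. Above 0 these values run from 1.44 for Gnao1 to 2.29 for Bex1, and below it from -1.58 for Hs3st5 to -1.99 for Sctr. At day 49 the dimmer sets of Gabrb2 and Hs3st5 lie at -0.09 and -0.32. The dimmer Gabrb2 set lies farthest from 0 at day 1, at 0.26.

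The day 49 differences followed different courses after day 20. For Penk, Sctr and Hs3st5 both means moved up and one moved further: the mutant for Penk, and the wild type for Sctr and Hs3st5. For Bex1 the wild type went down and the mutant stayed near its day 20 level. For Gnao1 the mutant went up and the wild type stayed, and for Gabrb2 the wild-type mean moved by 0.63 and the mutant mean by -0.29. The change in the genotype difference from day 20 to day 49 was 1.39 for Bex1 (SE 0.22), 0.89 for Gnao1 (SE 0.28), -1.81 for Sctr (SE 0.22), -0.93 for Gabrb2 (SE 0.39) and -1.37 for Hs3st5 (SE 0.25), none of them tested because they contain the day 49 genotype difference.

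**Figure D4:**
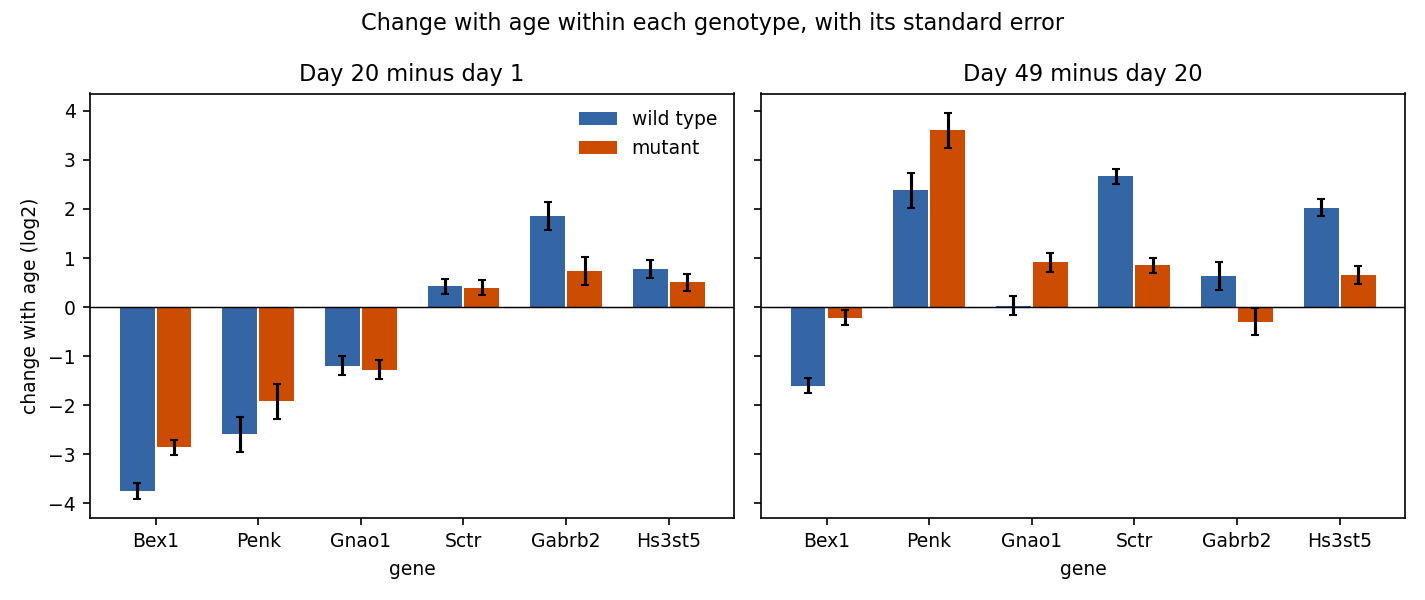
Change in mean level (log2) from day 1 to day 20 and from day 20 to day 49 in wild-type and mutant hearts, for the brighter probe set of each gene, with bars of 1 SE from the model of 18 arrays. In the right panel the mutant step is 3.60 for Penk, 0.85 for Sctr and -0.22 for Bex1, against wild-type steps of 2.38, 2.66 and -1.60.

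The day 49 differences were also taken within animals of the same Xist class. The genotypes did not overlap for any of the 6 genes at that age, so every subset of arrays must keep each sign. Nothing is read from the signs, and only the sizes of the differences are described. Among animals with high Xist, 2 of each genotype, they were 2.36 for Bex1, 1.70 for Penk, 1.35 for Gnao1, -1.99 for Sctr, -1.34 for Gabrb2 and -1.40 for Hs3st5. Between the single mutant and the single wild type with low Xist they were 2.15, 2.46, 1.61, -1.98, -2.67 and -1.95 in the same order. Without the 2 mutant arrays of low hybridization controls, which leaves 1 mutant animal of day 49, they were 2.60, 1.54, 1.58, -1.98, -1.48 and -1.41.

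Markers of neurons and chromaffin cells were dim. Of 9 measured defining markers, 7 lay below the array median on every array, among them Th, the first enzyme of catecholamine synthesis (4.61 to 5.40), and the granule proteins Chga (4.17 to 4.80) and Chgb (3.35 to 3.87). Syp, a protein of synaptic vesicles, lay above it throughout (6.52 to 7.22). Over the 30 measured genes of that list the mean level at day 49 was 4.73 to 4.90 in wild types and 4.89 to 4.96 in mutants, and 1 gene was called at day 49, the adhesion molecule Ncam1, higher in the mutant by 1.32 (SE 0.16, limma adjusted p = 0.000233). Heart muscle also carries Ncam1, and its other probe sets had differences of 0.07 and -0.09. Of 8 measured Schwann cell markers, 0 were called at day 49, and 0 had an unadjusted p below 0.05.

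The other marker lists gave few calls at day 49, most of them for hypertrophy and wall stress. All probe sets gave 0.606% calls at that age, 0.235% higher and 0.370% lower in the mutant. Unadjusted p was below 0.05 for 8 of 13 fibroblast markers and 8 of 12 hypertrophy and wall stress markers. That compares with 2534 of all 31042 probe sets. All 12 hypertrophy and wall stress markers were positive, with a median difference of 0.67. Both lists were drawn up with results of these data known. Fibroblast markers had a mean level of 9.13 to 9.27 in wild types and 9.38 to 9.73 in mutants, with 12 of 13 positive, a median difference of 0.29 and 1 call, the matrix protein Postn (1.12, SE 0.23, limma adjusted p = 0.0289). The Postn call was lost in 6 of 28 alternative settings, among them leaving out mutant animal 3, which gave 0.73, or any 1 of the wild types of day 49, and the difference was 1.90 without both mutant arrays of low hybridization controls. Markers of hypertrophy and wall stress had a mean level of 9.80 to 10.02 in wild types and 10.52 to 11.07 in mutants, and 3 of 12 were called: Myh7, the slow myosin heavy chain (1.96, limma adjusted p = 1.50e-05), Ankrd23 (1.90, adjusted p = 0.000237) and Postn. A dimmer Myh7 probe set had a difference of 2.81 (SE 0.69) that did not pass (limma adjusted p = 0.0818). Nppa, the atrial natriuretic peptide gene, stood at 11.30, 10.92 and 11.54 in wild types and at 12.16, 12.18 and 13.75 in mutants, a difference of 1.45 that did not pass (limma adjusted p = 0.0597). The 14 measured atrial and conduction markers had a mean level of 6.52 to 6.66 in wild types and 6.56 to 7.32 in mutants. Leukocyte, endothelial, smooth muscle, ventricular and atrial lists had 0 calls by limma at day 49, with unadjusted p below 0.05 for 1, 0, 1, 0 and 3 of their genes. The part of these marker differences in the levels of the 6 genes was not tested.

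The hypertrophy and wall stress list was the only one of the 16 with calls at day 20, when Bex1 also passed. In all, 4 of its 12 genes were called, all higher in the mutant, beside 0.139% of all probe sets called and 0.0773% called higher. They were Ankrd23 (1.67, limma adjusted p = 0.00283), Fhl1 (0.74, adjusted p = 0.00304), Ccn2 (1.78, adjusted p = 0.0197) and Tnfrsf12a (1.16, adjusted p = 0.0466). The other Fhl1 probe sets had day 20 differences of 1.38 (limma adjusted p = 0.152) and 0.12, and neither passed. Over all 16 lists, with 270 of 304 genes measured, 0 were called at day 1, 4 at day 20 and 9 at day 49. All of these were higher in the mutant. The shares of all probe sets called were 0.110%, 0.139% and 0.606%, and at day 49 0.235% were higher and 0.370% lower. All lists were drawn up with results of these data known.

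Genes whose levels ran most like each of the 6 over the 18 arrays were ranked by Pearson's r among 14216 other genes. The arrays share age and genotype, so these r values describe the course over the 6 groups and carry no test. Bex1 ran most like Tceal9 and Ncam1 (r of 0.98 each), Ilk (0.98) and Tceal5 (0.97), and most unlike Slc22a23 (-0.98). Penk ran most like Sergef (0.92) and Ptgfr (0.84) and most unlike Abtb3 (-0.88). Gnao1 ran most like Rnd1 (0.91) and Anp32e (0.89) and most unlike Mfn1 (-0.91).

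Sctr and Hs3st5 stood in each other's lists of nearest genes, and Gabrb2 shared no listed gene with either. Sctr ran most like Card9 (0.95), with Hs3st5 next (0.94), and Hs3st5 ran most like Gngt2 (0.95) and Cox7a1, with Sctr behind them. For both, the gene that ran most unlike them was Myh7 (-0.95 each). Gabrb2 ran most like Ugp2 (0.90) and Itgae (0.88) and most unlike Hspb3 (-0.90). When likeness was taken over the 6 group means, 1 of the 4 nearest genes stayed for Gnao1 (Cfl2) and 0 for each of the other members, so the exact neighbours depend on the measure.

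Between the members themselves, r over the 18 arrays was highest for Sctr and Hs3st5 (0.94) and lowest for Bex1 and Gabrb2 (-0.87). After removing the group means it was -0.45 for Sctr and Hs3st5 and 0.12 for Bex1 and Gabrb2. Over all pairs it then ran from -0.57 for Penk and Gnao1 to 0.73 for Gabrb2 and Hs3st5. In that last pair wild-type animal 3 of day 49 was the highest of all 18 for both genes, at 7.57 and 6.85.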

How the data were processed

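The values used were the deposited log2 expression values of the series matrix, which the authors computed from the scanned arrays by log-scale robust multi-array analysis (RMA, per the submitters' processing notes and the series text), with background-corrected perfect-match intensities averaged per probe set; software and settings are not given in the sources used here. Because RMA already normalizes, no further scaling was applied, and levels of different probe sets are not compared. Array number limits the precision, and array scan files were not used here. Of 31099 probe sets, 57 Affymetrix controls were left out; 20826 of the rest carry 1 gene symbol in the platform annotation, 436 several and 9780 none.

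A model of 6 groups was fitted over 18 arrays with limma 3.58.1 in R 4.3.3 (12 residual and 5.77 prior degrees of freedom). Moderated two-sided tests were adjusted by Benjamini-Hochberg over 31042 probe sets and called at 0.05; the script was tested on simulated data. For the members, genotype was tested at days 1 and 20 and age over the mean of both genotypes; day 49 differences and steps within a genotype were described only. No 2 arrays held identical values. Replicates are separate animals, per the series text. Xist was called high above 8.

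Members and gene lists were chosen with earlier results of these data known. List genes were counted by their brightest probe set, while the shares given beside them are over all probe sets. The genes named were the members with all their probe sets; per list and comparison up to 4 called genes by smallest p, or up to 2 where none was called; up to 4 genes most like and 2 most unlike each member; and Rbm20, Nppa and Myh7. Bex2, Bex4, Tceal1 and Tceal8 were named after their values were seen, to complete the family. Alternatives were other scalings, filters, spread models, weights, a replicate block, Xist class and leaving out arrays.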

Additional observations from a re-analysis of the deposited data

How the results depend on the processing

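Over 28 alternative settings per result no called direction was reversed. In all, 1173 values stayed on their side of the threshold or near the value reported, 51 became weaker, 6 stronger, and 2 moved by more than the spread. Many settings could not move the members' day 49 differences, which are differences of group means. These were the spread models, filters, replicate block, Xist class and arrays left out of other groups. Such values count among the 1173 and say nothing about stability. Probe sets called for genotype at day 1, 34 in all, were 4 with the day 1 arrays alone, 135 with array quality weights (85 higher and 50 lower) and 15 to 234 on leaving out single arrays. Centring arrays on their medians gave 10 higher and 16 lower in place of 17 and 17. At day 20, 43 became 98 with array quality weights and 21 to 49 without single arrays. At day 49, 188 became 116 without both mutant arrays of low hybridization controls and 109 to 240 without single arrays. With 1 probe set per gene, fewer are tested, and age calls went from 12728 to 7292 and from 7306 to 4324. The day 49 difference of Bex1 was 2.60 without both arrays of low hybridization controls, and that of Gabrb2 was -2.07 to -1.29 without single arrays. Replicate numbers do not pair the animals: 4 of 9 same-number pairs correlated above 0.1 (r from -0.19 to 0.22). With the replicate block, calls were 38, 38 and 208 for genotype at days 1, 20 and 49 and 12738 and 7327 for age, and Bex1 at day 20 had a limma adjusted p of 0.0270. Apart from the probe set count and the arrays left out, the cause was not tested. Sctr, Gabrb2 and Hs3st5 lie near or below the array median in the young groups.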
